A study of Mus musculus with 34 samples.

Results

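Serglycin, encoded by *Srgn*, is the core protein of the proteoglycan that fills mast cell (MC) granules, and 9 further genes encode enzymes that build and sulfate the heparin chains attached to it. These 10 genes were chosen by name, from 25853 genes listed in the tables. They were measured by mCEL-Seq2, a plate-based single-cell RNA sequencing method that counts the 3′ end of each captured RNA molecule once, in ear skin cells of mice. The labels give C57BL/6J for all mice, and the study's methods give the *Mcpt5-cre* *Tln1*fl/fl reporter crosses as C57BL/6J-Albino, homozygous for *Tyr* c-2J. MCs came from 3 WT mice, which carried the *Mcpt5-cre* transgene and a *R26* LSL:YFP reporter with *Tln1*+/+ alleles, and from 3 *Tln1*ΔMC mice, which carried the same transgene and reporter with *Tln1*fl/fl alleles, so that Cre removes *Tln1*, the gene of the integrin adaptor talin-1, from MCs. The WT mice were littermates, and all 6 mice were male and 7 weeks old, and MCs were sorted as CD45+ Lin- YFP+ cells, so that only cells in which Cre from the *Mcpt5* (*Cma1*) promoter had acted were measured. CD45- GFP+ cells from ears of *Myh11-GFP* mice, whose reporter marks smooth muscle cells and pericytes, formed a further group of 4 libraries. Their number of mice is not given, nor is their age beyond a range that the study's methods give for all genotypes. These libraries were taken as 1 sample.

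Cells with over 1000 transcripts were kept, which left 338, 294 and 272 MCs of WT mice 1 to 3, 285, 354 and 934 MCs of *Tln1*ΔMC mice 1 to 3, and 330 *Myh11-GFP* cells. No marker was required of a kept cell. The study kept fewer MCs and left out a very small subset with macrophage features, so the MCs here are not its exact set. Predicted genes named Gm plus a number held between 14.2% and 58.0% of the transcripts of a mouse, and every level below is therefore given per 10000 transcripts outside these genes. On this basis the mice were measured with between 699401 and 5238325 transcripts and the *Myh11-GFP* cells with 1440272. The 10 MC markers together reached between 637 and 872 per 10000 in the 6 mice and 0.194 in the *Myh11-GFP* cells. *Tln1* itself stood at 4.51, 5.92 and 6.71 per 10000 in the WT mice and at 5.57, 4.33 and 3.63 in the *Tln1*ΔMC mice. The genotypes overlapped, and because the deleted part of the gene is not given in the sources used here, this 3′ count does not check the labels. In 3 MC libraries, libraries 2 and 3 of WT mouse 2 and library 8 of *Tln1*ΔMC mouse 3, the median cell held at least 2 transcripts of the macrophage or of the keratinocyte markers, and these are called marker-rich below. In 5 further MC libraries this median was 1 for the macrophage markers. Fibroblast markers were highest in library 1 of WT mouse 2, at 517 per 10000, and in library 2 of WT mouse 3, at 272, neither of which is marker-rich in this sense. Library 8 also held 1 barcode with 431991 transcripts, in which keratinocyte markers stood at 309 per 10000 and *Srgn* at 2.38.

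Heparin is a heavily sulfated form of heparan sulfate. Its synthesis in the Golgi begins when a xylosyltransferase places xylose on a serine of the core protein, after which exostosins extend a chain of alternating sugars, and N-deacetylase/N-sulfotransferases, an epimerase and O-sulfotransferases modify it. In connective tissue MCs the negatively charged chains on serglycin hold histamine and proteases such as chymase, tryptase and carboxypeptidase in the granule. Most other cells attach heparan sulfate to syndecans, glypicans or perlecan instead.

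The stretches just upstream of *Srgn* and *Ndst2* are shown because these were the 2 members with the highest ratio of the MC level to the *Myh11-GFP* level. They come from RefSeq for GRCm38.p6, each is on the minus strand, and each covers the 250 bases before a RefSeq start. The *Srgn* stretch lies at chr10:62527446-62527695 before the first of 2 starts listed, and the *Ndst2* stretch lies at chr14:20734563-20734812. Capitals mark matches on either strand to 3 motifs, which were GATAA for GATA factors, CANNTG for E-boxes and CCGGAAG for Ets factors. The CAGCTG E-box and the Ets match of *Srgn* lie next to each other.

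Srgn: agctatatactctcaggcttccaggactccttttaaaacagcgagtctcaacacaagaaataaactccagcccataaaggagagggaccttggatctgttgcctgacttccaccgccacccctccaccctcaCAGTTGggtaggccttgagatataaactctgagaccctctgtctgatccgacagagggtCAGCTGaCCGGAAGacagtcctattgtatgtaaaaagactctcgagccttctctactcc

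Ndst2: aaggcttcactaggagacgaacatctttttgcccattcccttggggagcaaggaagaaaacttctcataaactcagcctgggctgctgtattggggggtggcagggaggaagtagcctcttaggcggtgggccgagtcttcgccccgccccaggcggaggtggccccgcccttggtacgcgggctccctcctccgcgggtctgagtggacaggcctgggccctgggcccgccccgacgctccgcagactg

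The *Srgn* stretch held an E-box at bases 118 to 113 and another at bases 59 to 54 before the start, and CCGGAAG at bases 52 to 46. The *Ndst2* stretch held none of the 3 motifs, and GATAA was found in neither stretch. Among 32851 such stretches of mouse genes, 22.6% held GATAA, 66.2% held CANNTG and 6.91% held CCGGAAG.

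*Srgn* lies on chromosome 10 of GRCm38 from 62493833 to 62527451 on the minus strand. Its level was 31.3, 43.2 and 43.7 per 10000 in MCs of WT mice 1 to 3 and 32.3, 37.0 and 37.1 in MCs of *Tln1*ΔMC mice 1 to 3. The genotypes overlapped, with 39.4 ± 6.99 in WT and 35.5 ± 2.74 in *Tln1*ΔMC mice (mean ± SD, n = 3 mice each). The difference of -3.93 gave p = 0.40 in a two-sided exact permutation test, whose smallest possible p with 3 against 3 mice is 0.10. Over the 30 MC libraries the *Srgn* level ran from 19.0, in library 8 of *Tln1*ΔMC mouse 3, to 60.8, in library 2 of WT mouse 2, with a median of 36.6. Both ends of this range were marker-rich libraries. In library 8 the 1 large barcode held 43.8% of the transcripts, and without it the level was 32.0. The 2 libraries with the most fibroblast markers stood at 34.8 and 28.8. Without the 3 marker-rich libraries, WT mouse 2 stood at 41.6 and *Tln1*ΔMC mouse 3 at 40.9. Without the 77 MCs in which macrophage, keratinocyte or fibroblast markers made up at least 1% of transcripts, the levels were 33.0, 48.9 and 48.0 in WT and 32.6, 37.1 and 40.2 in *Tln1*ΔMC mice, which still overlapped.

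*Srgn* stood far above the enzyme genes. Since each molecule is counted once at its 3′ end, these levels are not divided by gene length. In descending order the mean levels per 10000 over the 6 mice were 37.4 for *Srgn*, 3.20 for *Ext1*, 2.60 for *Ndst2*, 1.19 for *Hs2st1*, 1.11 for *Hs3st1*, 0.512 for *Ndst1*, 0.389 for *Xylt1*, 0.318 for *Hs6st1*, 0.222 for *Ext2* and 0.108 for *Glce*. Neighbours in this order were in the same order in 6 of 6 mice for *Srgn* over *Ext1*, *Ndst2* over *Hs2st1*, *Hs3st1* over *Ndst1*, *Ndst1* over *Xylt1* and *Ext2* over *Glce*. The order of *Ext1* and *Ndst2* held in 4 of 6 mice, and each of the other 3 neighbouring pairs in 5 of 6, so that these neighbours did not separate in every mouse.

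**Figure D1:**
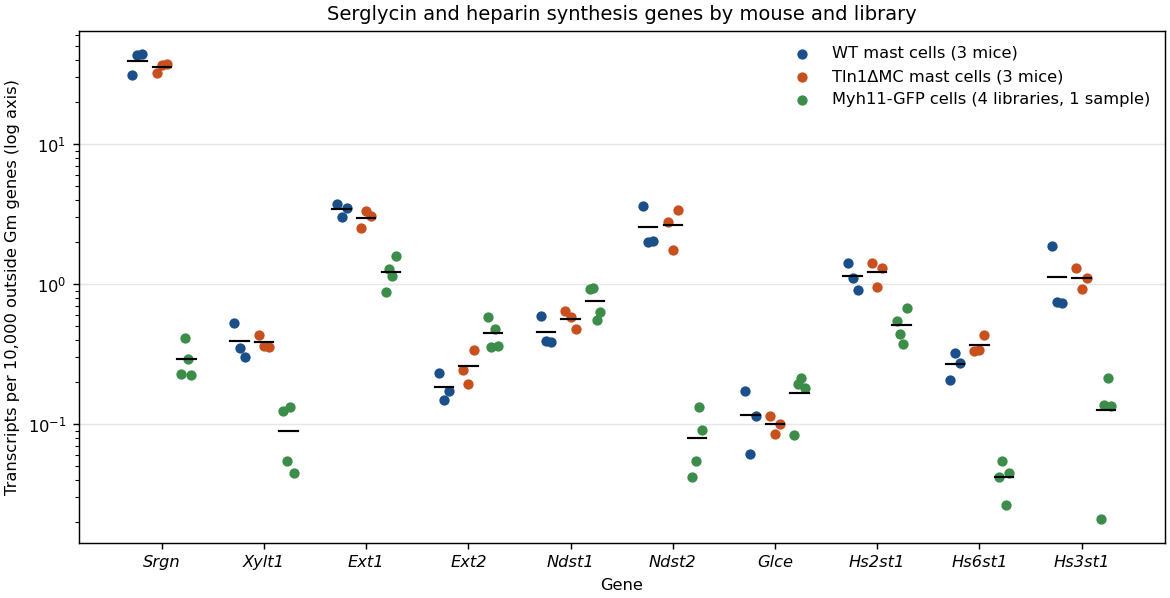
Level of the 10 genes in transcripts per 10000 outside Gm genes (log axis), with 1 point per MC mouse or per *Myh11-GFP* library and a line at the mean of the points. *Srgn* lies between 31.3 and 43.7 in the MC mice and between 0.226 and 0.413 in the *Myh11-GFP* libraries, whereas *Ext2*, *Ndst1* and *Glce* have a higher mean in the *Myh11-GFP* libraries.

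*Xylt1*, on chromosome 7 from 117380979 to 117673580, encodes a xylosyltransferase that starts the chain. Its level was 0.532, 0.349 and 0.3003 per 10000 in the WT mice and 0.436, 0.365 and 0.355 in the *Tln1*ΔMC mice. The genotypes overlapped, and the *Myh11-GFP* libraries, at 0.045 to 0.133, lay below all 6 mice.

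*Ext1* and *Ext2* encode the 2 subunits of the polymerase that extends the chain, and lie on chromosome 15 from 53064038 to 53346159 and on chromosome 2 from 93661028 to 93822568. *Ext1* stood at 3.73, 3.04 and 3.48 per 10000 in WT and at 2.50, 3.35 and 3.09 in *Tln1*ΔMC mice. *Ext2* stood at 0.231, 0.148 and 0.172 in WT and at 0.244, 0.195 and 0.340 in *Tln1*ΔMC mice. Both overlapped between genotypes, but they differed in their order against the *Myh11-GFP* cells. *Ext1* was higher in every MC mouse than in the *Myh11-GFP* libraries, at 0.878 to 1.58, and *Ext2* was lower in every MC mouse than in these libraries, at 0.358 to 0.585.

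*Ndst1* and *Ndst2* encode N-deacetylase/N-sulfotransferases, which replace acetyl groups of the chain by sulfate. NDST2 is known as the form that MCs need to make heparin, and NDST1 as the form that most tissues use for heparan sulfate. *Ndst2*, on chromosome 14 from 20723730 to 20734562, stood at 3.61, 2.01 and 2.03 per 10000 in WT and at 2.80, 1.77 and 3.36 in *Tln1*ΔMC mice. *Ndst1* stood at 0.589, 0.392 and 0.386 in WT and at 0.641, 0.586 and 0.477 in *Tln1*ΔMC mice. *Ndst2* was thus above *Ndst1* in each mouse, and neither gene separated the genotypes. In the *Myh11-GFP* libraries the order was turned, with *Ndst1* at 0.558 to 0.936 and *Ndst2* at 0.042 to 0.133.

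*Glce*, on chromosome 9 from 62057248 to 62122655, encodes the epimerase that turns glucuronic into iduronic acid. It was the lowest member, at 0.173, 0.061 and 0.114 per 10000 in WT and at 0.115, 0.085 and 0.101 in *Tln1*ΔMC mice. These levels overlapped with the *Myh11-GFP* libraries, at 0.084 to 0.212.

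The O-sulfotransferases *Hs2st1*, *Hs6st1* and *Hs3st1* add sulfate at different positions of the sugars, and the 3-O-sulfate that HS3ST1 adds is part of the site that binds antithrombin. They lie on chromosome 3 from 144429706 to 144570181, on chromosome 1 from 36068400 to 36106446 and on chromosome 5 from 39613935 to 39755475. *Hs2st1* stood at 1.41, 1.11 and 0.915 per 10000 in WT and at 1.42, 0.959 and 1.31 in *Tln1*ΔMC mice. *Hs3st1* stood at 1.87, 0.7496 and 0.729 in WT and at 1.31, 0.917 and 1.11 in *Tln1*ΔMC mice. Both overlapped between genotypes. *Hs6st1* stood at 0.208, 0.322 and 0.272 in WT and at 0.333, 0.340 and 0.433 in *Tln1*ΔMC mice, and here all *Tln1*ΔMC mice lay above all WT mice. All 3 genes were higher in every MC mouse than in the *Myh11-GFP* libraries, which reached at most 0.677 for *Hs2st1*, 0.055 for *Hs6st1* and 0.212 for *Hs3st1*.

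To ask whether the loss of talin-1 in MCs went with a change of these genes, the transcripts of each mouse were summed and compared with limma. None of the members passed, 0 of 10 at an adjusted p under 0.05, and over all 8601 genes tested 0 (0%) passed. Without adjustment, 527 genes had a p under 0.05 in limma with a trend and 532 with limma voom, which also called 0 genes, and 0 of the 10 members were among the 527. The log2 fold changes of *Tln1*ΔMC over WT mice, after TMM normalization, were -0.09 (SE 0.24) for *Srgn*, 0.06 (SE 0.24) for *Xylt1*, -0.15 (SE 0.20) for *Ext1* and 0.51 (SE 0.30) for *Ext2*. They were 0.38 (SE 0.23) for *Ndst1*, 0.11 (SE 0.27) for *Ndst2* and -0.05 (SE 0.44) for *Glce*. Those of the O-sulfotransferases were 0.16 (SE 0.21) for *Hs2st1*, 0.51 (SE 0.28) for *Hs6st1* and 0.17 (SE 0.31) for *Hs3st1*. The smallest adjusted p among the 10 genes was 0.855 in limma, and their median log2 fold change was 0.13 beside 0.02 over all genes tested.

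A missed threshold does not show equal levels. The 95% interval of the log2 fold change ran from -0.63 to 0.46 for *Srgn*, from -0.50 to 0.72 for *Ndst2*, and from -1.04 to 0.94 for the weakly measured *Glce*. Of the 10 genes, *Hs6st1* was the one with no overlap between genotypes in level, in the direction in which 5.34% of all genes tested were separated, and 6.31% were separated in the other direction. Its difference of 0.101 per 10000 gave p = 0.10 in the exact permutation test, the smallest that 6 mice allow, and p = 0.75 after Benjamini-Hochberg adjustment over the 10 genes. No gap remained for *Hs6st1* without 4 MC barcodes of over 50000 transcripts. Nor did one remain without the 77 MCs with markers of other cell types. In that setting *Ext1* was instead separated, at 3.51 to 3.82 in WT and 2.52 to 3.34 in *Tln1*ΔMC mice. The share of all genes separated was not taken without these cells, so the *Ext1* gap has no background beside it. The sign of the *Srgn* fold change also rested on single mice or libraries, since it was 0.035 without the 3 marker-rich libraries and 0.055 without WT mouse 2. That of *Ndst2* turned to -0.084 without *Tln1*ΔMC mouse 3.

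**Figure D2:**
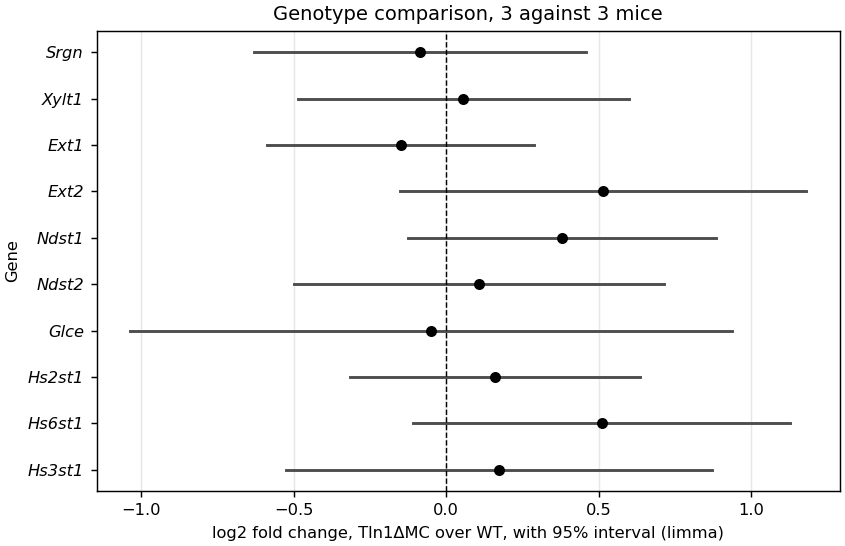
log2 fold change of *Tln1*ΔMC over WT MCs (x axis) for each of the 10 genes (y axis), as a point with its 95% interval from limma over 3 against 3 mice. Each interval includes 0, and that of *Glce* is the widest, from -1.04 to 0.94.

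The mice also fell into 2 sets that do not follow genotype. Each library table has a second set of 96 barcodes that was not in use, and the transcripts found in these barcodes divided the mice into WT mouse 1 and *Tln1*ΔMC mouse 1 on one side and the other 4 mice on the other. This division was made after the data were seen, the labels give no batch, and its part in the values was not tested. *Srgn* was lower in the first 2 mice, at 31.3 and 32.3 per 10000, than in the other 4, at 37.0 to 43.7. *Hs3st1* was higher in them, at 1.31 and 1.87 against 0.729 to 1.11, as were *Hs2st1*, *Xylt1*, *Ndst1* and *Glce*. In all, 5 of the 10 genes were higher in both of these mice than in the other 4, beside 11% of all genes tested, and 1 was lower, beside 4.71%. Within the first pair, *Srgn* differed by 0.965 per 10000 between *Tln1*ΔMC and WT, and within the other 4 mice by -6.38. *Ndst2* differed by -0.811 and 0.542 in the same way, so that for both genes the direction between genotypes was not the same in the 2 sets.

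Set beside the *Myh11-GFP* cells, MCs had 7 of the 10 genes higher in all 6 mice than in all 4 libraries, while 20.5% of 9840 genes with a level of at least 0.1 per 10000 were separated in this way. In the other direction 1 gene, *Ext2*, was separated, beside 21.4% of these genes, and without the 3 marker-rich libraries *Ext2* overlapped as well. The median log2 ratio was 1.68 for the members and 0.03 over all genes compared. The 2 cell types were sorted from different mice into different libraries, so cell type and preparation cannot be told apart, and no test was made against 1 sample.

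The ratio of the mean MC level to the *Myh11-GFP* level was 128 for *Srgn*, with a range over the 6 mice of 107 to 150, and 33.98 for *Ndst2*, with a range of 23.1 to 47.2. It was 9.43 for *Hs3st1*, 7.63 for *Hs6st1*, 4.00 for *Xylt1*, 2.76 for *Ext1* and 2.41 for *Hs2st1*. The core protein and the MC form of the N-sulfotransferase thus had the highest ratios. For the other 3 genes the *Myh11-GFP* level was the higher one, by 2.10-fold for *Ext2*, 1.53-fold for *Ndst1* and 1.47-fold for *Glce*, and of these *Ndst1* and *Glce* overlapped between MC mice and libraries. The *Myh11-GFP* levels rested on few transcripts, 42 of *Srgn*, 11 of *Ndst2* and 6 of *Hs6st1*, and the exact 95% Poisson interval of the *Ndst2* level ran from 0.038 to 0.137 per 10000. Intervals of this kind cover counting error only.

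**Figure D3:**
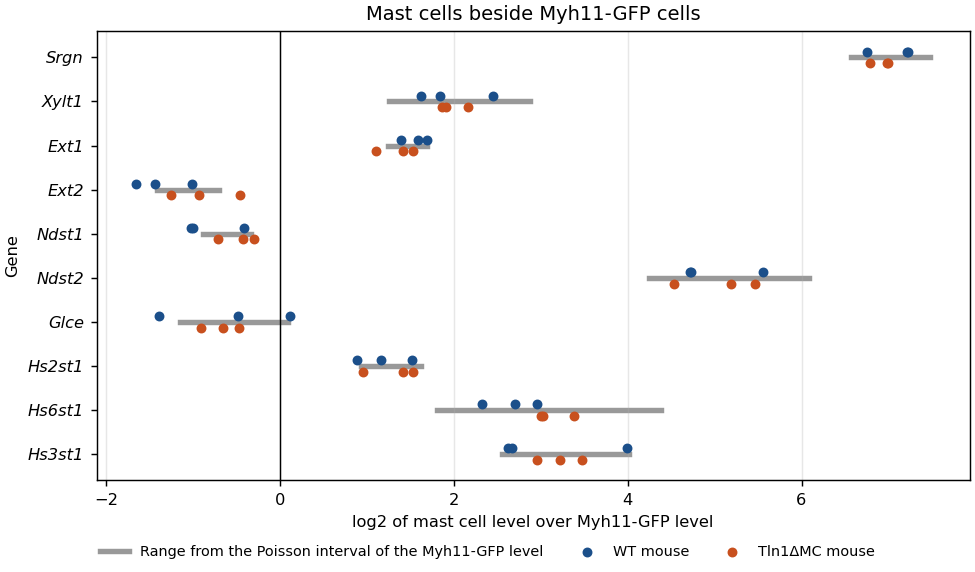
log2 of the MC level over the *Myh11-GFP* level (x axis) for each gene (y axis), with 1 point per WT or *Tln1*ΔMC mouse and a grey bar for the mean ratio over the exact Poisson interval of the *Myh11-GFP* level. *Srgn* and *Ndst2* lie farthest to the right, with mean ratios of 128 and 33.98, and *Ext2* and *Ndst1* lie left of 0 in all mice.

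The *Srgn* level over all *Myh11-GFP* cells, 0.292 per 10000, lay below that of the barcodes not in use in the same libraries, 4.78. The MC level of each mouse also lay below that of its barcodes not in use. How much of the 0.292 is background was not tested, so the ratio of 128 takes this level as it stands. After each cell was thinned to 1000 unique molecular identifiers (UMIs) outside Gm genes, *Srgn* was found in 91.9% of 2195 MCs and in 3.58% of 307 *Myh11-GFP* cells, at median depths before thinning of 3689 and 4081 UMIs. Thinning left out 282 and 23 shallower cells, and without it the shares were 94.5% and 9.70%. By mouse, the thinned share was 81.8%, 95.8% and 96.4% in WT and 86.7%, 85.4% and 96.3% in *Tln1*ΔMC mice. The genotypes overlapped (two-sided exact permutation p = 0.90). A typical MC held 2 to 4 *Srgn* UMIs per 1000 as the median of its mouse. *Ndst2* was found in 24.6% of thinned MCs and *Ext1* in 28.4%, shares at which most cells show no UMI of an enzyme gene at this depth.

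**Figure D4:**
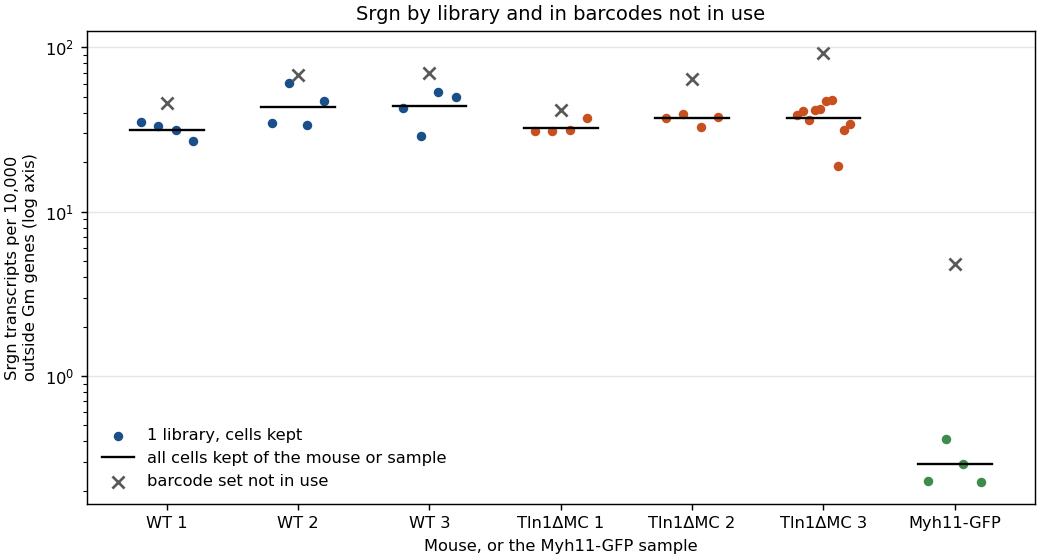
*Srgn* level per 10000 transcripts outside Gm genes (log axis) by mouse, with 1 point per library, a line for all kept cells of the mouse or sample and a cross for the barcode set not in use. MC libraries lie between 19.0 and 60.8, *Myh11-GFP* libraries between 0.226 and 0.413, and each cross lies above the line of its mouse.

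The libraries of 1 mouse are parts of the same sorted sample, and their spread can be set beside counting noise. For *Srgn* the chi-square per degree of freedom between the libraries of a mouse ran from 5.55 to 141 in the MC mice and was 0.932 in the *Myh11-GFP* libraries, where 1 is the value of counting noise alone, without the spread from cell to cell. The highest values, 107 and 141, belong to WT mouse 2 and *Tln1*ΔMC mouse 3, which hold the marker-rich libraries. WT mouse 3, which holds none of these, stood at 50.3. For *Ndst2* the chi-square per degree of freedom was 16.5 in *Tln1*ΔMC mouse 3 and 0.622 in WT mouse 3. At the same relative spread this value grows with the number of transcripts counted. There were 42 *Srgn* transcripts in the *Myh11-GFP* libraries and 37035 in the 6 MC mice. The values are therefore not comparable as spread between mice, genes or the 2 cell types.

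Enzymes of a family that act on the same chain can be compared as shares of their UMIs. *Ndst2* made up 86.0%, 83.7% and 84.0% of *Ndst1* and *Ndst2* UMIs in WT and 81.3%, 75.1% and 87.6% in *Tln1*ΔMC mice, against 8.87% in *Myh11-GFP* cells (11 of 124 UMIs, exact 95% binomial interval 4.51% to 15.3%). The MC mice and the *Myh11-GFP* libraries, at 4.35% to 19.2%, did not overlap. *Ext1* made up 90.1% to 95.4% of *Ext1* and *Ext2* UMIs in MC mice and 60.0% to 81.4% in *Myh11-GFP* libraries. Between genotypes the two-sided exact permutation test gave p = 0.50 and p = 0.20 for these shares.

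*Hs6st1* was the minor 6-O-sulfotransferase of MCs, since its relative *Hs6st2* stood at 3.77 ± 0.789 per 10000 (SD, n = 6 mice), and *Hs6st1* gave 3.85% to 10.3% of their joint UMIs. *Hs6st2* was not found among the 1440272 transcripts of *Myh11-GFP* cells. With 3 transcripts taken as the bound on a count of 0, its level there was up to 0.0208 per 10000. By this bound, which covers counting error only, *Hs6st2* was at least 181-fold higher in MCs. Of the same family as *Hs3st1* are *Hs3st3a1* and *Hs3st3b1*, which were singled out after their values were seen and stood at 0.591 and 0.320 per 10000 in MCs. *Hs3st1* gave 37.5% to 70.3% of the UMIs of these 3 genes in the 6 mice.

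**Figure D5:**
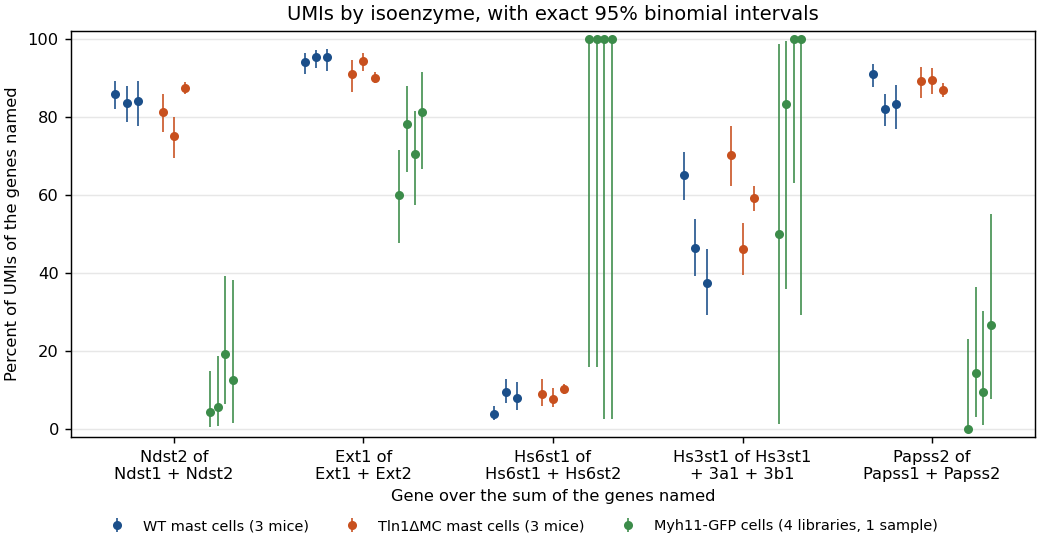
Percent of UMIs (y axis) that come from the first named gene of each family (x axis), by MC mouse and by *Myh11-GFP* library, with exact 95% binomial intervals. *Ndst2* gives 75.1% to 87.6% of *Ndst1* and *Ndst2* UMIs in MC mice and at most 19.2% in *Myh11-GFP* libraries, and *Papss2* gives 82.1% to 91.0% against at most 26.7%.

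Within the *Myh11-GFP* sample the members were not evenly spread. Cells were clustered without the members, and clusters were named from marker genes, which gave 57 pericyte-like, 19 skeletal or heart muscle-like, 11 fibroblast-like, 6 keratinocyte-like and 6 endothelial cell-like cells, and left 231 cells unnamed. The pericyte-like name rests on *Kcnj8*, *Abcc9* and *Steap4*. All pericyte markers together stood at 154 per 10000 in this class and at 162 in the unnamed cells, and fibroblast markers at 285 and 163. No class was named as smooth muscle cells by this rule, although their markers stood at 52.7 in this class and at 139 in the unnamed cells. The skeletal or heart muscle-like cells held markers of that name at 99.9, beside pericyte markers at 127 and smooth muscle markers at 110. Of the 42 *Srgn* transcripts, 13 (31.0%) came from 5 of the 6 endothelial cell-like cells, with 6 of these 13 in 1 cell. In this class the level was 4.07 per 10000 with an exact 95% Poisson interval of 2.16 to 6.95, which does not cover the spread between cells. In the pericyte-like cells it was 0.192 with an interval of 0.071 to 0.419. The endothelial cell-like level lay above those of the other classes but below the 4.78 of the barcodes not in use, and these cells held fibroblast and pericyte markers at 93.4 and 54.9 per 10000 beside 17.2 of endothelial cell markers, which include *Pecam1*, *Cdh5* and *Tie1*. None of these 6 cells was of the barcode set not in use. *Hs3st1* likewise had 5 of its 17 transcripts in the endothelial cell-like cells and 0 in the pericyte-like cells. There the exact 95% Poisson interval reached up to 0.118 per 10000. These class levels depend on the clustering, since at resolution 0.5 no endothelial cell-like class was found and the pericyte-like class of 64 cells held *Srgn* at 0.543 and 5 *Hs3st1* transcripts, at 0.143. At resolution 1.5 a vascular smooth muscle cell-like class of 19 cells was found, with *Srgn* at 0.098 per 10000 from 1 transcript. At resolution 1, *Ndst1* and *Ext1* were found across the classes, at 0.994 and 1.603 in the pericyte-like and at 0.673 and 1.17 in the unnamed cells. These are cells of 1 sample, so no test was made, and the classes of 6 and 11 cells are small.

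The other genes of the pathway were described by lists. Of 12 genes that build the linkage region and polymerise the chain, 8 were tested between genotypes, and of 18 genes that modify heparan sulfate, 10 were tested, with 0 passing in either direction and median log2 fold changes of 0.00 and 0.13. In the comparison with *Myh11-GFP* cells, 20.5% of all genes compared were higher in all MC mice and 21.4% lower. Of the 12 modifying genes compared, 8 were higher and 1 was lower. The lower one was *Sulf1*, an extracellular enzyme that removes 6-O-sulfate, which was singled out after its values were seen and stood at 0.018 per 10000 in MCs and at 0.278 in *Myh11-GFP* cells. The median log2 ratio of MCs over *Myh11-GFP* cells was 2.63 for the modifying genes and 1.38 for the 9 linkage and polymerisation genes compared, beside 0.03 over all genes compared.

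Of 14 genes compared that supply sulfate donors and nucleotide sugars, 4 were higher in all MC mice and 4 lower, counts close to the 20.5% and 21.4% over all genes compared, with a median log2 ratio of 0.11, and 0 of 14 passed between genotypes. *Papss2*, a synthase of the sulfate donor PAPS, stood at 2.89 ± 0.781 per 10000 in MCs (SD, n = 6 mice) and at 0.062 in *Myh11-GFP* cells, while *Uap1*, which makes UDP-N-acetylglucosamine, stood at 1.89 and 3.70. *Papss2* gave 82.1% to 91.0% of *Papss1* and *Papss2* UMIs in MC mice and 12.7% in *Myh11-GFP* cells. The log2 fold change between genotypes was -0.08 (SE 0.23) for *Papss2* and -0.12 (SE 0.23) for *Uap1*.

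Of the chondroitin and dermatan sulfate genes 1 of 10 compared was higher in all MC mice and 4 were lower, with a median log2 ratio of -0.97. The shares over all genes compared were 20.5% and 21.4%. *Chst15*, the sulfotransferase that makes the disulfated chondroitin sulfate E, overlapped at 0.504 in MCs and 0.528 per 10000 in *Myh11-GFP* cells, and *Chst11*, a chondroitin 4-O-sulfotransferase, stood at 0.305 and 0.021. Of these genes 7 were tested between genotypes and 0 passed.

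Among 13 proteoglycan core proteins compared, *Srgn* and *Cd44*, a cell surface receptor for hyaluronan, were higher in all MC mice, and 9 were lower. Over all genes compared, 20.5% were higher and 21.4% lower. *Cd44* stood at 6.63 ± 0.739 per 10000 in MCs (SD, n = 6 mice) and at 1.67 in *Myh11-GFP* cells. The syndecan genes *Sdc1* and *Sdc2*, named after their values were seen, were lower in MCs, at 0.133 and 0.056 against 2.77 and 1.35. Between genotypes 0 of 7 tested core protein genes passed, and the median log2 fold change was -0.10. The lowest of them, -3.32 for *Bgn* and -3.10 for *Dcn*, had adjusted p = 0.431 and p = 0.613 in limma. Both encode proteoglycans of fibroblasts, and the summed level of all 8 fibroblast markers, *Dcn* included, ran from 27.4 to 99.5 per 10000 in the WT mice and from 1.38 to 13.1 in the *Tln1*ΔMC mice. The part of fibroblast RNA in these 2 values was not tested.

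Genes that break down heparan sulfate in lysosomes were higher in all MC mice in 4 of 9 cases and lower in 0. Over all genes compared these shares were 20.5% and 21.4%. Between genotypes 0 of 9 passed. *Ids*, iduronate 2-sulfatase, stood at 2.64 per 10000 in MCs and 0.590 in *Myh11-GFP* cells. Of 8 genes of granule proteins and of the making and loading of histamine (*Hdc* and *Slc18a2*), 8 were higher in all MC mice and 0 of 8 passed between genotypes. *Mcpt4*, *Cma1*, *Tpsb2*, *Cpa3* and *Hdc* among them are also MC markers used above, and MCs were sorted through the *Cma1* promoter. The higher levels in MCs were thus largely set by the choice of cells and genes. The chymase gene *Mcpt4* stood at 318 ± 58.0 per 10000 (SD, n = 6 mice) and the carboxypeptidase gene *Cpa3* at 135 ± 17.98. In the *Myh11-GFP* cells *Mcpt4* was not found, and *Cpa3* stood at 0.007. With the bound of 3 transcripts used above, *Mcpt4* was at least 15275-fold higher in MCs. Their log2 fold changes between genotypes were -0.20 (SE 0.31) and -0.11 (SE 0.25).

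The genes whose levels followed *Srgn* most closely over the 30 MC libraries were *Fcer1g*, the common gamma chain of the IgE receptor, *Sh3bgrl3*, *Fxyd5*, *Slc41a3* and *Slc29a1*, with Pearson r of 0.804, 0.801, 0.796, 0.748 and 0.725 on log2 levels among 1538 genes ranked. Of the enzyme genes expressed highly enough to be ranked, *Ext1*, *Hs3st1*, *Ndst2* and *Hs2st1* had r of 0.127, 0.071, 0.023 and -0.002, and ranks from 752 to 982. These values describe libraries of 6 mice that differ in cell content and depth, so the libraries are not independent and no p is given.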

How the data were processed

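Reads were aligned by the authors with BWA 0.6.2-r126 to mouse gene models (mm10), counted in the sense direction as UMIs of 6 bases, and converted to transcripts. The deposited values are these transcript counts corrected by the authors for UMI collisions, and not whole numbers, which returned to whole UMIs within 1e-06 in 100% of cases. Doublets were gated out by the authors in the MC sort, and no caller was run. Each table lists the same 192 barcodes, of which 1 set of 96 labels the wells of a library, so a barcode found in several libraries is not a shared cell. Mouse numbers were read from the labels, with 4 libraries per mouse and 10 for *Tln1*ΔMC mouse 3.

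The genotype fit used limma 3.58.1 (trend) on summed transcripts of each mouse per 1000000, scaled by own TMM code and taken to log2 after adding 1, for genes that reached 10 transcripts in 3 or more mice, and Benjamini-Hochberg adjustment at 0.05. This took the place of a planned count test (edgeR), which was not run. The recovered whole UMIs were fitted with limma as an alternative. In simulated data for *Tln1*ΔMC against WT with a dispersion of 0.02, 59.5% of genes changed 2-fold were found among 8601, and 90.5% of those changed 4-fold. With a dispersion of 0.1 these were 3% and 73.5%. Cells of *Myh11-GFP* libraries were clustered with scanpy 1.11.5 (Leiden, resolution 1, 15 neighbours, 30 components, 2000 genes). A class needed 3 markers in at least 25% of its cells, 2-fold above other cells.

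Members and lists were chosen with earlier results of these data known. Named genes were the members, of each list those that passed and the 2 with the highest MC level, and the 5 most like *Srgn* (log2 of level plus 0.1, mean level at least 1). The isoenzyme shares, cluster naming rule, library marker limit and barcode sets were settled after values were seen, as were genes named outside this rule. 1 gene that the rule names is not reported here. Positions are from GENCODE M21.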

Additional observations from a re-analysis of the deposited data

Results flagged for a closer look

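The barcode sets not in use were left out of every comparison except where a barcode passed 1000 transcripts. *Srgn* was detected in them at 45.7, 68.2 and 69.7 per 10000 in WT mice 1 to 3 and at 41.6, 64.3 and 92.7 in *Tln1*ΔMC mice 1 to 3, each above the level of the kept cells of that mouse, and at 4.78 in the *Myh11-GFP* libraries. These barcodes held between 2.60% and 5.00% of the transcripts outside Gm genes of a mouse, and 3.75% in the *Myh11-GFP* sample.

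Among 70 groups of 4 or 10 libraries, 3 had a library far from the others by Dixon's test, where chance gives about 1 in 20. *Srgn* was 37.3 per 10000 in a library of *Tln1*ΔMC mouse 1, above the others, *Glce* was 0.316 in a library of the same mouse, above the others, and *Ndst2* was 1.43 in a library of *Tln1*ΔMC mouse 3, below the others.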

How the results depend on the processing

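No member passed the genotype comparison under any alternative run in which it was tested. Of the 10 members, 7 were tested after thinning and 9 in cells with over 2000 transcripts. Likewise 9 were tested without WT mouse 1, *Tln1*ΔMC mouse 2 or *Tln1*ΔMC mouse 3. Over all genes tested, the count rose from 0 to 2 with the set of mice from the unused barcodes as a block, an alternative added after seeing the data, and ran from 0 to 10 without 1 mouse at a time (10 without *Tln1*ΔMC mouse 1, 1 without WT mouse 1). With the mouse number as a replicate block, 0 genes passed and 427 had an unadjusted p under 0.05. Deviations of same-numbered mice correlated at 0.16, -0.21 and -0.27. WT mouse 1 and *Tln1*ΔMC mouse 1 correlated best with each other, and the remaining mice correlated best with a mouse of another number. With so few mice per genotype, these correlations cannot decide whether the numbers pair the mice.

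Some log2 fold changes changed sign. *Srgn* was 0.035 without the 3 marker-rich libraries, *Ext1* was 0.081 and *Xylt1* -0.24 after thinning, and *Xylt1* was -0.0081 when Gm genes did not count toward the limit of 1000 transcripts. Without 1 mouse at a time the log2 fold change ran from -0.29 to 0.055 for *Srgn*, from -0.084 to 0.37 for *Ndst2*, from -0.24 to 0.010 for *Ext1*, from -0.35 to 0.0091 for *Glce*, from -0.042 to 0.57 for *Hs3st1* and from -0.10 to 0.24 for *Xylt1*. Each range covers only the fits in which the gene was tested. The cause of the sign changes was not tested.

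Of the members 1 had no overlap between genotypes. This count became 0 with Gm genes in the total, after thinning and without barcodes of over 50000 transcripts. It became 2 with per-cell means and without the 3 libraries, and 1 to 6 without 1 mouse at a time (6 without WT mouse 1). Shares over all genes were not taken under these settings. With 2 against 3 mice, separation in the absence of any difference is more frequent than with 3 against 3. With per-cell medians the count was 0, but *Hs6st1* was found in at most 19.7% of the cells of a mouse, so its median could not separate. The mean *Srgn* level of 37.4 became 21.1 with Gm genes in the total and 31.3 as a median per cell. The mean share of MCs with *Srgn*, 90.4%, became 76.4% for at least 2 UMIs, 73.6% at 500 UMIs and 98.2% at 2000 UMIs. The *Srgn* ratio of 128 became 88.9 with Gm genes, 85.6 with per-cell means and 155 in cells with over 2000 transcripts, and ran from 116 to 149 without 1 *Myh11-GFP* library at a time, over which that of *Ndst2* ran from 27.7 to 46.0. The 1 member lower in MCs became 0 with per-cell means, over 2000 transcripts and without the 3 libraries, and 1 to 2 without 1 library at a time.

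A planned DESeq2 fit was not run. A block by barcode set in use was not run, since each mouse uses both. The self-test found few changes of 1.5-fold, and *Glce*, *Hs6st1* and *Ext2* rest on few transcripts, so small changes of the members could not be seen with 3 against 3 mice.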
